A study of Mus musculus with 2 samples.

Results

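The chromatin loops described here join anchors whose midpoints lie more than 1 Mb apart on a mouse autosome. They were taken from both deposited loop lists by the distance column alone. There were 1418 such very long loops in the stroke list and 1683 in the sham list, 3101 of the 30371 loops in all. The lists came from Hi-C, in which DNA segments that lie close together in the nucleus are ligated and sequenced as pairs, made from the frozen cerebral cortex of the operated side. In the MCAO group the middle cerebral artery was closed with a filament for 1 h (middle cerebral artery occlusion) and the cortex was taken after 6 h of reperfusion. Sham mice underwent the same surgery without advancing the filament, and their cortex was taken after 6 h of recovery. The labels give no strain, age or genotype. They name 3 cortices per group, do not say whether these were pooled, and give 1 library per group, so no difference between MCAO and sham has a replicate check and none was tested. Whole cortex holds many cell types, and a loop of a few cells cannot be told apart from a weak loop of all of them. Hi-C measures no transcripts, so the tissue label was not checked against marker genes.

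Chromatin loops hold 2 distant segments of a chromosome in contact. Many form where the ring-shaped cohesin complex extrudes DNA until it meets CTCF, a zinc finger protein that acts as an insulator. Others join promoters of developmental genes to distant enhancers, or join segments that carry the same chromatin marks. Genes for transcription factors and adhesion proteins of neurons often stand alone in long stretches with few other genes, and their enhancers can lie far away.

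Before the values, the promoters of 6 genes are shown, because their anchors carried the loops on which the results turn. Bcl6 (a transcriptional repressor that acts in cortical neurogenesis) and Plk2 (a kinase induced by neuronal activity) stood at loops found in both lists. These loops had many PETs per kb of anchor. Bcl11a and Mef2c (transcription factors of cortical neurons), Flrt2 and Pcdh10 (adhesion proteins) stood at anchors joined by many very long loops. Each sequence is from RefSeq on GRCm38.p6, the assembly that mm10 is drawn from, and runs 5′ to 3′ from 250 bases before to 50 bases after a start site that lies within 2.5 kb of an anchor. The windows are chr16:23981234-23981533 on the minus strand for Bcl6 and, on the plus strand, chr13:110394794-110395093 for Plk2, chr11:24080445-24080744 for Bcl11a, chr13:83523406-83523705 for Mef2c, chr12:95691976-95692275 for Flrt2 and chr3:45378148-45378447 for Pcdh10. Capitals mark GC boxes, the letters GGGCGG or, on the other strand, CCGCCC.
Bcl6: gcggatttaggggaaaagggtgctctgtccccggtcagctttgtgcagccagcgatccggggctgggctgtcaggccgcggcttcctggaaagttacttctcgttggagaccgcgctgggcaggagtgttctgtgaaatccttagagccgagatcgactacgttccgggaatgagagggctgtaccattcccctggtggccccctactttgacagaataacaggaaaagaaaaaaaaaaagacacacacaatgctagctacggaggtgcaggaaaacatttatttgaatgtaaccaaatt
Plk2: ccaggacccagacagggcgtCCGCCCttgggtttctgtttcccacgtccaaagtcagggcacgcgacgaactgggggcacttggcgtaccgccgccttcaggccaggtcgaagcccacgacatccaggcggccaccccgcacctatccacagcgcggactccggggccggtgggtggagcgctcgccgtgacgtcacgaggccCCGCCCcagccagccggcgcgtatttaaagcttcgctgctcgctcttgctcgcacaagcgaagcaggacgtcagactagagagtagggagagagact
Bcl11a: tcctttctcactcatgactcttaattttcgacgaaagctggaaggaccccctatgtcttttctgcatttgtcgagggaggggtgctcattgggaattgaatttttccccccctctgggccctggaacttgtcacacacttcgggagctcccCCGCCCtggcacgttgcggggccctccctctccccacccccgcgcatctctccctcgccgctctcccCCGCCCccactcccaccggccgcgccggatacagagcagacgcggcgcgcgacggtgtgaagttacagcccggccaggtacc
Mef2c: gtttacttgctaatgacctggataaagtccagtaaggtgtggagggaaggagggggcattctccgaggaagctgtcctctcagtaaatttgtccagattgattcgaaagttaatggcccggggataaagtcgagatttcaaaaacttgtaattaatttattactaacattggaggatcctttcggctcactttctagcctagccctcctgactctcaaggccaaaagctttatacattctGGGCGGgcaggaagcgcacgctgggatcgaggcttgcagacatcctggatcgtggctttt
Flrt2: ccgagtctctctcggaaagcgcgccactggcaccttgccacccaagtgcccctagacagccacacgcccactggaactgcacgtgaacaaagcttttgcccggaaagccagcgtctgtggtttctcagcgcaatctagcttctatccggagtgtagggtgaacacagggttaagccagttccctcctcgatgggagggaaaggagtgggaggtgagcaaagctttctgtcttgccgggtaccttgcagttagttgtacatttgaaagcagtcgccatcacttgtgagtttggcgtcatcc
Pcdh10: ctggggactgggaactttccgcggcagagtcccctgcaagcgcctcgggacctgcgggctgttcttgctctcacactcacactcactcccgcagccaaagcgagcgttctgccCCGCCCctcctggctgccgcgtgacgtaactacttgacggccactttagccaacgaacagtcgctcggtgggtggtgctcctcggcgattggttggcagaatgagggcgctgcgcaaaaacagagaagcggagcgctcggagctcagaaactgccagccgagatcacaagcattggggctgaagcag

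The 6 promoters differed in composition. Plk2 held 31 CpG dinucleotides and 2 GC boxes, Bcl11a 23 and 2, Pcdh10 24 and 1, Mef2c 10 and 1, and Bcl6 and Flrt2 held 14 CpGs each and no GC box. A GC box stood in 49.4% (45.9 to 53.0) of the 803 promoters at anchors of very long MCAO loops and in 50.9% (47.3 to 54.5) of the 778 at very long sham loops. Promoters at loops of 1 Mb or less held one in 57.0% of MCAO cases (55.9 to 58.1) and 55.2% of sham cases (54.0 to 56.4), as did 47.0% of all 20084 autosomal promoters. The TATA box letters TATAAA, on either strand, were in 13.8% and 13.8% of promoters at very long MCAO and sham loops. They were in 8.90% and 9.85% at loops of 1 Mb or less and in 12.7% of all promoters. A core of the CTCF motif, AGGGGGC or AGGTGGC on either strand, was in 19.6% and 19.3% of promoters at very long MCAO and sham loops, in 21.5% and 20.7% at loops of 1 Mb or less and in 18.4% of all promoters. For the GC box the intervals of very long and shorter loops were apart in MCAO and overlapped in sham. For the TATA box letters they were apart in both lists, 11.5 to 16.4 against 8.27 to 9.56 in MCAO. In sham they were 11.4 to 16.4 against 9.14 to 10.6. At very long loops the TATA intervals held the 12.7% of all promoters. For the CTCF core the intervals overlapped in both lists. Many promoters belong to both very long and shorter loops. Of anchors with a single gene, 52.0% (47.7 to 56.3) in MCAO and 48.6% (44.3 to 52.8) in sham had the gene pointing into the loop. Of the 1604 genes at very long loops, 1259 had a promoter in the sequence table.

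The deposited lists rest on 40550536 MCAO and 34974213 sham paired-end tags (PETs), a depth ratio of 1.16, and both begin at 10 PETs per loop with a false discovery rate of at most 0.05. Intervals in parentheses are exact 95% intervals, Clopper-Pearson for shares and binomial for ratios of counts. They cover counting error only. Neither the PETs nor the loops that share an anchor or a gene are independent of each other. The first loops inside the distance limit spanned 1000.2 kb with 11 PETs in MCAO and 1000.1 kb with 20 PETs in sham. Those just outside spanned 999.2 kb with 13 PETs in MCAO and 999.8 kb with 17 PETs in sham.

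As listed, very long loops were fewer in MCAO, while loops of 1 Mb or less were in all more numerous. The ratio of MCAO to sham counts was 0.843 (0.785 to 0.905) over 1 Mb, 0.901 (0.861 to 0.944) from 500 kb to 1 Mb and 1.09 (1.06 to 1.12) at 1 Mb or less. Very long loops made up 9.22% of autosomal MCAO loops and 11.6% of autosomal sham loops. The ratio stayed near this level farther out, at 0.803 (0.714 to 0.904) for the 511 MCAO and 636 sham loops over 1.5 Mb and 0.819 (0.676 to 0.992) for the 199 and 243 over 2 Mb. Scaling MCAO PETs to the sham depth raised the MCAO minimum to 12 PETs, while the sham minimum stayed at 10. It dropped the 465 very long MCAO loops of 10 or 11 PETs, while sham kept its 658. The ratio was then 0.566 for very long loops and 0.673 for loops of 1 Mb or less, where the MCAO excess did not hold. With at least 15 PETs per loop it was 0.965 (0.866 to 1.08) for very long loops, from 666 MCAO and 690 sham loops, and 1.22 for loops of 1 Mb or less. Most of the gap in the full lists of very long loops thus lay among loops of 10 to 14 PETs.

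The spans of the lists were close. The median was 1.33 Mb in MCAO, with quartiles of 1.13 and 1.67 Mb, and 1.35 Mb in sham, with quartiles of 1.14 and 1.71 Mb. Beyond 3 Mb there were 47 MCAO and 59 sham loops. On the X chromosome, outside the autosomes described here, 17 loops exceeded 1 Mb in each list.

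By chromosome, MCAO had fewer very long loops on 14 autosomes, more on 3 and as many on 2. Chromosome 7 stood out with 66 loops in MCAO and 44 in sham, a ratio of 1.5 (1.01 to 2.25). Over loops of any span it also had more in MCAO, 837 against 638 in sham. Chromosome 11 had 83 in MCAO and 73 in sham, a ratio of 1.14 (0.820 to 1.58), whose interval held 1. The interval lay below 1 on 7 autosomes, with the lowest ratios on chromosome 18 (62 in MCAO and 89 in sham, 0.697) and chromosome 10 (73 in MCAO and 103 in sham, 0.709). The share of a chromosome's loops that were very long was lower in MCAO on 18 of the 19 autosomes. Chromosome 7 was the exception, at 7.89% (6.15 to 9.92) in MCAO and 6.90% (5.06 to 9.15) in sham, with intervals that overlapped. Chromosomes 13 and 12 had the highest shares in both lists, at 12.6% and 12.1% in MCAO and 15.8% and 15.5% in sham. Across the 19 autosomes the log2 ratio of counts followed the number of genes per Mb, with Pearson's r 0.84 and Spearman's rho 0.66, and r was 0.68 without the 2 autosomes farthest from the median gene density. These points come from 1 pair of libraries and share its depth and base composition, so the relation is a description. It was not computed for loops of any span, whose counts leaned the same way on most of the gene-richest and gene-poorest autosomes. Those loops numbered 837 in MCAO and 638 in sham on gene-rich chromosome 7. They numbered 916 and 738 on 11, 376 and 297 on 19, and 548 and 483 on 17. On gene-poor chromosomes they numbered 695 and 729 on 12, 1218 and 1259 on 1, 977 and 1015 on 3, but 636 and 593 on 18. The relation is thus not shown to be particular to very long loops.

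**Figure D1:**
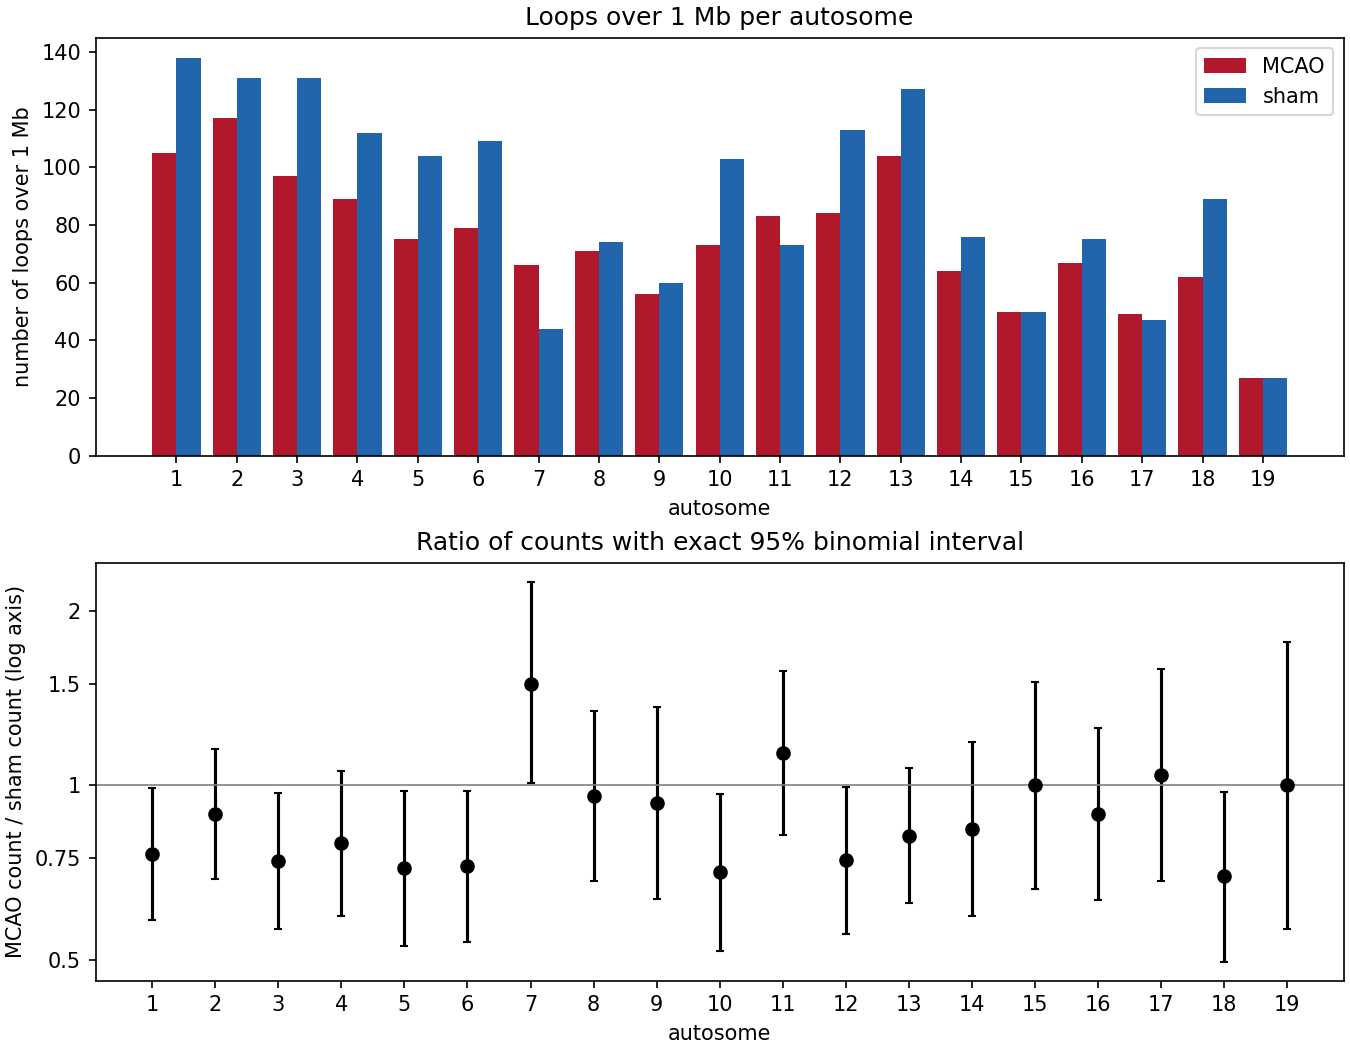
Number of loops over 1 Mb on each autosome in MCAO (red) and sham (blue), with the ratio of MCAO to sham counts and its exact 95% interval below on a log axis. MCAO bars are lower on 14 autosomes, and chromosome 7 is the autosome whose interval lies above 1.

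Very long loops had wider anchors than loops of 1 Mb or less. The median anchor width, averaged over both anchors of a loop, was 35.2 kb in MCAO and 33.8 kb in sham. Loops of 1 Mb or less had 19.7 kb in MCAO and 24.7 kb in sham, while loops of 500 kb to 1 Mb, at 34.8 kb in MCAO and 34.1 kb in sham, were close to the very long ones. A median of 1 protein-coding gene lay wholly between the anchors in each list. That is 0.73 genes per Mb in MCAO and 0.66 in sham, against 1.29 and 1.04 between the anchors of MCAO and sham loops of 500 kb to 1 Mb. No gene lay between the anchors in 35.2% of very long MCAO loops and 39.7% of very long sham loops, against 55.2% and 58.8% of MCAO and sham loops of 1 Mb or less, whose median was 0. The interior was crowded at a few loops, with 106 genes in the MCAO loop from Trim27 to the histone genes of chromosome 13 (15 PETs).

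The PET number was tied to anchor width and not to distance. Loops had a median of 14 PETs in MCAO and 13 in sham, with maxima of 238 and 207, and 32.8% in MCAO and 39.1% in sham had only 10 or 11. Spearman's rho between PETs and anchor width was 0.82 over the 1418 MCAO loops and 0.86 over the 1683 sham loops, and between PETs and span -0.03 in MCAO and -0.08 in sham. All loops of a list share a library, so these too are descriptions. Anchors of at least 50 kb were found in 24.5% of MCAO loops (22.3 to 26.8) and 20.3% of sham loops (18.4 to 22.3).

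The loops with the most PETs joined broad segments around genes with unlike roles. In MCAO the first was the chromosome 15 loop between St3gal1, a sialyltransferase gene, and Zfat, a zinc finger gene, with 238 PETs over anchors of 190 kb. Its sham partner had 116 PETs over 130 kb. The next joined Vcan, the gene of the matrix proteoglycan versican, to Atp6ap1l and the ribosomal gene Rps23 on chromosome 13, with 210 PETs in MCAO and 207 in sham. A chromosome 18 loop between Fbxo15 and Neto1, an auxiliary subunit of glutamate receptors, had 116 PETs in MCAO and 151 in sham. The chromosome 8 loop between the Otud4 and Smarca5 regions (Smarca5 encodes a chromatin remodelling ATPase) had 108 PETs in MCAO and 151 in sham. The Oxct1 (ketone body metabolism) to Prkaa1 (a subunit of the energy sensor AMPK) loop of chromosome 15 had 125 PETs in MCAO, and its nearest sham loop had 183. That sham loop lay nearest to a different MCAO loop, of 17 PETs. Other leading loops touched Klf4, a transcription factor of cell identity, with 118 PETs in MCAO and 38 in its sham counterpart, and Cdh11, a cadherin, with 28 PETs in the MCAO counterpart of a sham loop of 153.

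Most very long loops touched a gene at 1 end or at none. A protein-coding gene end lay within 2.5 kb of an anchor in 58.0% of MCAO loops (55.4 to 60.6) and 51.04% of sham loops (48.6 to 53.5), against 61.4% and 52.6% of MCAO and sham loops of 1 Mb or less. It lay at both anchors in 232 MCAO loops, 16.4%, and in 230 sham loops, 13.7%, against 21.4% and 18.97% of MCAO and sham loops of 1 Mb or less. The gene-end share climbed with PETs. It was 41.5% in MCAO and 38.1% in sham at 10 or 11 PETs, and 85.7% in MCAO and 90.1% in sham at 51 PETs or more. By anchor width it was 59.8% in MCAO and 50.7% in sham under 20 kb, 37.2% and 32.4% from 20 to 25 kb, and 80.7% and 83.0% at 60 kb or more. The genes at very long loops were long themselves, with medians of 31.4 kb in MCAO and 35.1 kb in sham. Genes at loops of 1 Mb or less alone had medians of 24.0 kb in MCAO and 25.0 kb in sham.

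Gene classes were then set beside those of the shorter loops. Adhesion genes of neurons and synapses stood at 76 very long MCAO loops, 5.36% (4.25 to 6.66), and at 78 very long sham loops, 4.63% (3.68 to 5.75). At loops of 1 Mb or less their share was 1.55% (1.35 to 1.77) in MCAO and 1.36% (1.17 to 1.58) in sham. Developmental transcription factors outside the homeobox family followed, at 4.30% (3.31 to 5.49) of very long MCAO loops and 3.21% (2.42 to 4.17) of very long sham loops, against 1.63% and 1.37% of the shorter MCAO and sham loops. Axon guidance genes stood at 2.12% and 2.08% of very long MCAO and sham loops, against 0.888% and 0.600% of the shorter ones. Neurotransmitter receptor genes stood at 2.33% and 1.60%, against 1.12% and 0.826%. For each of these 4 classes the intervals of very long and shorter loops were apart in both lists. Loops of 500 kb to 1 Mb lay between, with adhesion genes at 2.21% in MCAO and 2.18% in sham and developmental factors at 3.03% (2.48 to 3.66) in MCAO and 2.26% (1.81 to 2.78) in sham, where the intervals for the developmental factors overlap those of very long loops. Those of receptor genes overlapped in both lists too, and those of axon guidance genes in MCAO. Among gene-end loops alone the order held for adhesion genes, at 9.23% of very long MCAO and 9.08% of very long sham loops, against 2.52% and 2.59% of the shorter ones.

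The other 9 of the 13 classes showed no such separation in both lists. Homeobox genes stood at 1.34% of very long MCAO loops and 0.951% of very long sham loops, against 1.17% and 0.764% of the shorter ones, and in loops of 500 kb to 1 Mb at 2.07% in MCAO and 1.21% in sham. Morphogen genes (Wnt, FGF, BMP, Hedgehog and Notch signalling) had 1.06% and 0.654% in very long MCAO and sham loops, against 0.931% and 0.663%. Chemosensory receptor genes had 1.62% (1.03 to 2.42) and 1.13% (0.681 to 1.76), against 0.594% (0.474 to 0.736) and 1.06% (0.890 to 1.253), so their intervals were apart in MCAO alone. Ribosome and respiration genes had 1.55% and 0.891%, against 1.98% and 1.74%, with intervals apart in sham. Zinc finger genes had 1.199% and 1.49%, against 1.79% and 1.40%. Immune genes had 0.353% and 0.416%, against 0.988% and 0.780%, with intervals apart in MCAO. Ion channel genes had 0.776% and 0.416%, against 1.30% and 1.12%, with intervals apart in sham. Vesicle release and scaffold genes of the synapse had 3 very long MCAO loops (Syt4, Syt5 and Syt11), or 0.212%. In sham they had 0 of 1683, which allows a share of up to 0.219% there. At the shorter loops their share was 0.530% in MCAO and 0.468% (0.357 to 0.602) in sham, so their intervals were apart in sham. Early response genes, induced quickly by activity or stress, had 0.282% and 0.0594%, against 0.315% and 0.249%. Of the 24 in the class, 2 had a very long loop in either list (8.33%, 1.03 to 27.0), near the 7.76% of all autosomal genes. These were Bdnf, with 3 very long loops in MCAO and 1 in sham, and Nr4a2, with 1 in MCAO and 0 in sham. Membership of a class went by gene symbol.

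**Figure D2:**
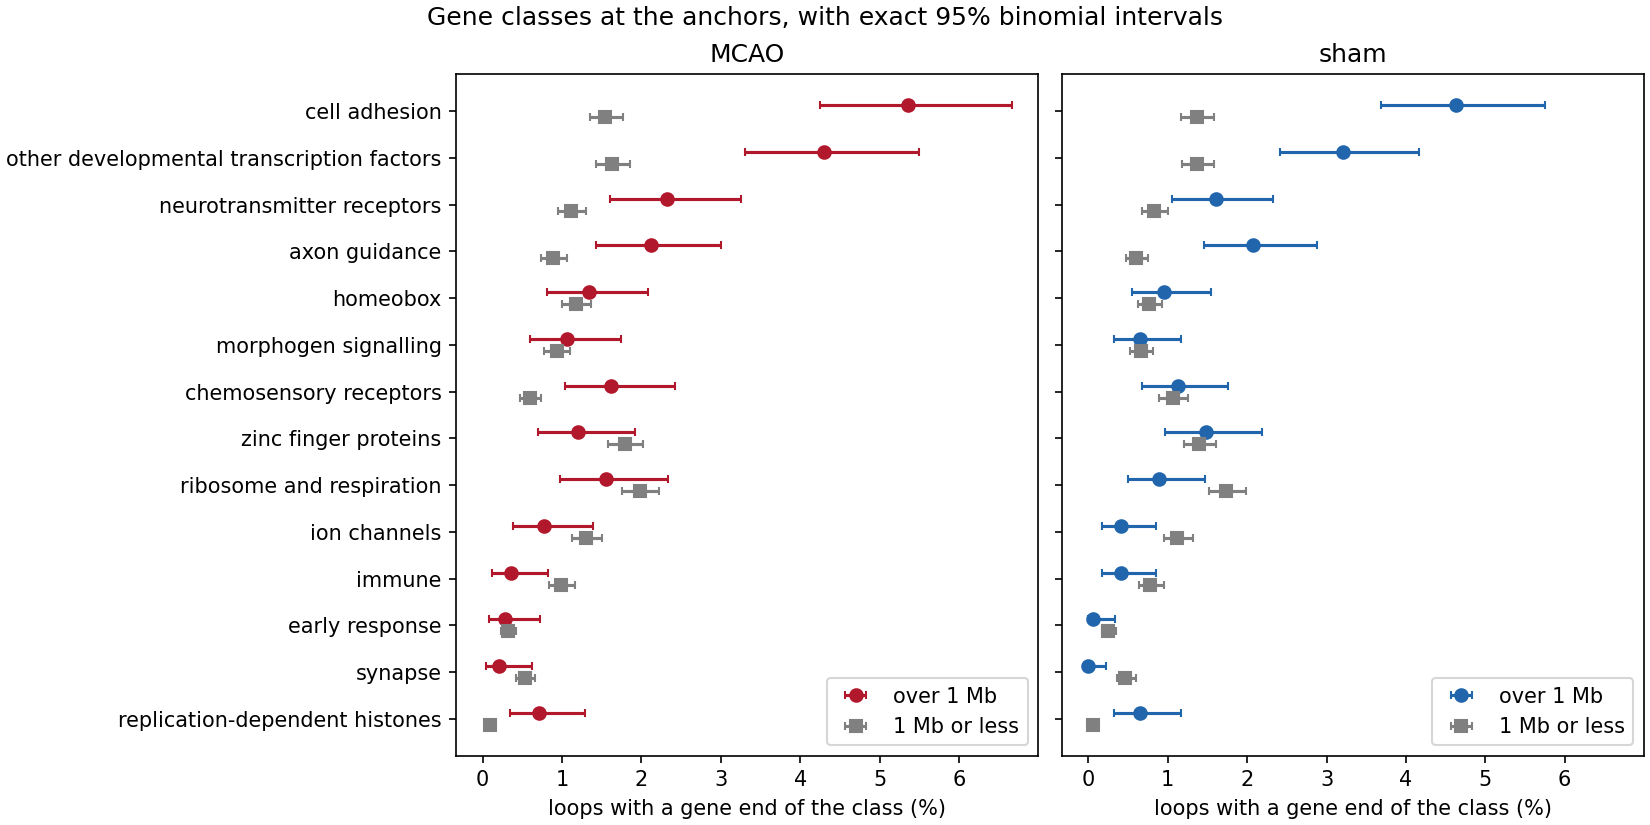
Share of loops with a gene end of each class at an anchor, for MCAO (left) and sham (right), with coloured circles for loops over 1 Mb, grey squares for loops of 1 Mb or less and bars for exact 95% intervals. Cell adhesion and other developmental transcription factors lie farthest right, at 5.36% and 4.30% of very long MCAO loops and 4.63% and 3.21% of very long sham loops.

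Most adhesion loops had a gene end at 1 anchor alone. Of the 76 MCAO and 78 sham loops, 68 in each list had no gene end at the far anchor, and the share with genes at both ends was 10.5% in MCAO (4.66 to 19.7) and 12.8% in sham (6.32 to 22.3). Over all very long loops with a gene end, it was 28.2% (25.1 to 31.4) for MCAO and 26.8% (23.8 to 29.9) for sham. An anchor without a gene end can lie inside a gene, as at Lrrc4c, where 2 MCAO loops ended within the gene itself. Of the 170 adhesion genes in the class, 43 had a very long loop in either list (25.3%) and 33 in both (19.4%), against 7.76% and 2.81% of all 20661 autosomal genes, with more in MCAO at 14 and fewer at 13. Flrt2, a repulsive guidance and adhesion protein, had 7 loops in MCAO and 7 in sham. Pcdh10, a protocadherin, had 6 in MCAO and 3 in sham, Flrt3 6 in MCAO and 2 in sham, and Lrrc4c, a postsynaptic adhesion gene, 5 in MCAO and 2 in sham. Lrfn5 had 3 in MCAO and 7 in sham, Ncam2 2 in MCAO and 6 in sham, and Alcam 2 in MCAO and 7 in sham. Members of 1 class thus differed in both directions.

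The developmental transcription factors included several that set the identity of cortical neurons. Bcl11a had 6 loops in MCAO and 6 in sham. Bcl11b, a gene of projection neurons to the brainstem and spinal cord, had 5 in MCAO and 2 in sham. Mef2c had 3 in MCAO and 6 in sham, Nr2f1, which patterns cortical areas, 5 in MCAO and 4 in sham, and Tfap2a 5 in MCAO and 3 in sham. The homeobox gene Pou3f2 of upper layer neurons had 5 in MCAO and 3 in sham. Of 206 factors of the class, 36 had a very long loop in either list (17.5%) and 19 in both (9.22%), against 7.76% and 2.81% of all autosomal genes. No very long loop joined a homeobox gene or other developmental factor to another such gene in either list. At loops of 1 Mb or less such pairs were rare too. The most frequent kind, homeobox with homeobox, had 0.0358% of MCAO and 0.0312% of sham loops. Homeobox with other developmental factors had 0.0286% and 0.0078%, and so had other developmental factors with each other. In MCAO loops of 500 kb to 1 Mb, homeobox with other developmental factors had 0.117% (0.0318 to 0.298). Among so few very long loops, the absence cannot be told apart from shares this low.

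Among axon guidance genes, Nrp1, a receptor for semaphorins, had 4 loops in MCAO and 4 in sham, Epha4 and Epha5, ephrin receptors, each 2 in MCAO and 4 in sham, and Nrp2 2 in each list. Their class had a gene end at the far anchor in 5 of 30 MCAO loops, 16.7% (5.64 to 34.7), and 5 of 35 sham loops, 14.3% (4.81 to 30.3). Loops at neurotransmitter receptor genes had one in 17 of 33 in MCAO and 14 of 27 in sham, a share of 51.5% (33.5 to 69.2) in MCAO and 51.9% (31.9 to 71.3) in sham, with intervals that overlapped those of guidance genes in MCAO and were apart in sham. Htr1a, a serotonin receptor, had 3 loops in MCAO and 2 in sham.

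Over single genes the lists differed in both directions. A difference of at least 3 very long loops was seen at 19 genes with more in MCAO, 1.18% of the 1604, and at 26 with fewer, 1.62%. A total of 580 genes had such a loop in both lists, 521 in MCAO alone and 503 in sham alone, and 903 had a single loop over both lists. Among genes named after their values were seen, Tafa2 had 6 loops in MCAO and 3 in sham and Id2, an inhibitor of bHLH factors, 3 in MCAO and 0 in sham. Gnpda2 had 1 in MCAO and 6 in sham, and Fbxo33 and B3galt2 each had 0 in MCAO and 4 in sham. These are counts of listed loops, and a loop just under 10 PETs is not listed.

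Loops with a gene class at each end were about as frequent as among shorter loops. Both anchors held a gene of one of the 13 classes in 20 MCAO loops, 1.41% (0.864 to 2.17), and 17 sham loops, 1.01% (0.589 to 1.61), against 1.23% and 1.247% of MCAO and sham loops of 1 Mb or less. Genes of the same class met in 12 MCAO loops (0.846%) and 10 sham loops (0.594%), against 0.759% and 0.873% of the shorter ones. Of these, 8 in MCAO and 5 in sham joined olfactory receptor genes, and 3 in MCAO and 4 in sham joined zinc finger genes. The olfactory pairs lay on chromosomes 2, 7 and 10 in MCAO and 2 and 7 in sham, with 10 to 26 PETs in MCAO and 10 to 45 in sham. Beta globin genes, which are set within an olfactory cluster of chromosome 7, lay at the same anchors in 2 of the MCAO pairs and 1 of the sham pairs. Chemosensory loops had gene ends at both anchors in 21 of 23 cases in MCAO and 17 of 19 in sham, unlike the adhesion loops. The zinc finger pair of Zfp422 and Zfp637 on chromosome 6 was found in both lists, with 39 PETs in MCAO and 38 in sham.

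The sham list held a loop between 2 neighbouring semaphorin genes of chromosome 5, Sema3d and Sema3a, secreted cues that repel axons. It had 94 PETs over anchors of 99.8 kb. The matching MCAO loop had 24 PETs over anchors of 19.5 kb, and neither of its anchors reached a gene end. The difference in PETs goes with a difference in anchor width, and its part in the result was not tested.

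Histone genes, chosen as a class after their values were seen, met across the histone locus of chromosome 13. Loops from 1 block of replication-dependent histone genes to another numbered 4 in MCAO and 6 in sham. In MCAO they had 25, 24, 19 and 12 PETs, and in sham 51, 31, 14, 12, 11 and 10. Anchors at H2ac12 and H2bc12 met anchors at H3c2 and H4c2 in both lists, with 24 PETs in MCAO and 31 in sham over 1.71 Mb. Histone genes stood at 0.705% (0.339 to 1.29) of very long MCAO loops and 0.654% (0.327 to 1.17) of very long sham loops, against 0.0931% and 0.0624% of the shorter ones. Histone, olfactory receptor and zinc finger genes have near-identical copies, and reads from such copies can be misplaced, so these pairings are uncertain to that extent.

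Some anchors were joined by many very long loops. After overlapping anchors were merged, 24.9% (23.0 to 26.8) of 2019 anchors in MCAO and 24.1% (22.4 to 25.9) of 2399 in sham took part in more than 1 very long loop. Those with 5 or more numbered 34 in MCAO and 37 in sham. In MCAO the anchors with the most included those at Bcl11a (11 loops), Ccng1 (8), Kctd16 (8) and Nuf2 (7). In sham they included those at Flrt2 (13), Mef2c (13), Ncam2 (11), Gnpda2 (10) and Cenpc1 (8). A segment of chromosome 13 from 84730556 to 84790419 with no protein-coding gene end also had 8 in sham. Several loops could reach the same merged partner anchor. In MCAO the 11 at Bcl11a reached 10 and the 7 at Nuf2 reached 3. In sham the 13 at Mef2c reached 9 and the 11 at Ncam2 reached 7. Merged anchors could be wide, at 212 kb for Nuf2 in MCAO and 285 kb for Mef2c in sham. All 11 loops at Bcl11a in MCAO ran towards higher coordinates and all 7 at Nuf2 towards lower ones, while those at Flrt2 ran to both sides. Both anchors of a loop were also used by loops of 1 Mb or less in 46.8% (44.2 to 49.5) of MCAO cases and 41.8% (39.5 to 44.2) of sham cases, and neither anchor in 13.3% and 15.9%.

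At Bcl11a (chromosome 11, 24076564 to 24173558) the 6 MCAO loops with an anchor at a gene end had 97, 43, 39, 35, 30 and 13 PETs, and the 6 sham loops 112, 81, 32, 22, 13 and 11. All ran towards higher coordinates, over 1.14 to 2.91 Mb in MCAO and 1.23 to 2.89 Mb in sham, and 1 far anchor, at Vrk2 in sham, held a gene end. The loop of 1.80 Mb with 97 PETs in MCAO matched the sham loop of 1.77 Mb with 81 PETs, and the longest, of 2.91 Mb with 35 PETs in MCAO, matched the sham loop of 2.89 Mb with 22. The sham loop with 112 PETs, over anchors of 144 kb, matched an MCAO loop with 30 PETs over anchors of 58.1 kb. In each list 3 of the 6 loops had a counterpart.

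The loops at a gene end of Mef2c (chromosome 13, 83504017 to 83667079) had 80, 22 and 20 PETs in MCAO. In sham they had 53, 40, 35, 30, 29 and 26. The sham loops with 40, 35, 30 and 26 PETs had MCAO counterparts of 12, 23, 80 and 20 PETs. Those of 12 and 23 PETs are not among the MCAO loops counted here. Among loops with anchors under 20 kb, MCAO loops of 23, 20 and 18 PETs ended inside Mef2c, away from its ends. A sham loop of 13 PETs did so too. The numbers at gene ends thus leave out part of the loops at this gene. A loop of 1.096 Mb with 20 PETs in MCAO matched the 1.09-Mb loop with 26 PETs in sham. Just past the end of Mef2c, an anchor from 83707693 met the segment without gene ends named above with 65 PETs in MCAO and 89 in sham, at anchor widths of 33.3 kb in MCAO and 39.4 kb in sham.

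At Flrt2 (chromosome 12, 95692006 to 95785215) the 7 MCAO loops had 10 to 28 PETs and spans of 1.43 to 3.84 Mb, and the 7 sham loops had 10 to 25 PETs and spans of 1.13 to 3.39 Mb. Equal numbers hid far anchors that were partly unlike. A sham loop matched 3 of the MCAO loops, while 1 of the 7 sham loops had an MCAO match. The sham loops that matched the 1.43-Mb and 2.19-Mb MCAO loops had 25 and 14 PETs. They had no anchor at a gene end of Flrt2, so they are not among the 7. The far anchor of the 1.52-Mb MCAO loop, which lacked a match, lay within that of a 1.43-Mb sham loop. The 3.41-Mb loop with 17 PETs in MCAO matched the 3.39-Mb loop with 18 in sham. At Pcdh10 (chromosome 3, 45378398 to 45434579) a loop of 3.27 Mb towards lower coordinates had 33 PETs in MCAO and was matched in sham by 2 loops of 15 and 11 PETs. The other MCAO loops at Pcdh10 had 10 to 18 PETs and spanned up to 5.73 Mb.

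**Figure D3:**
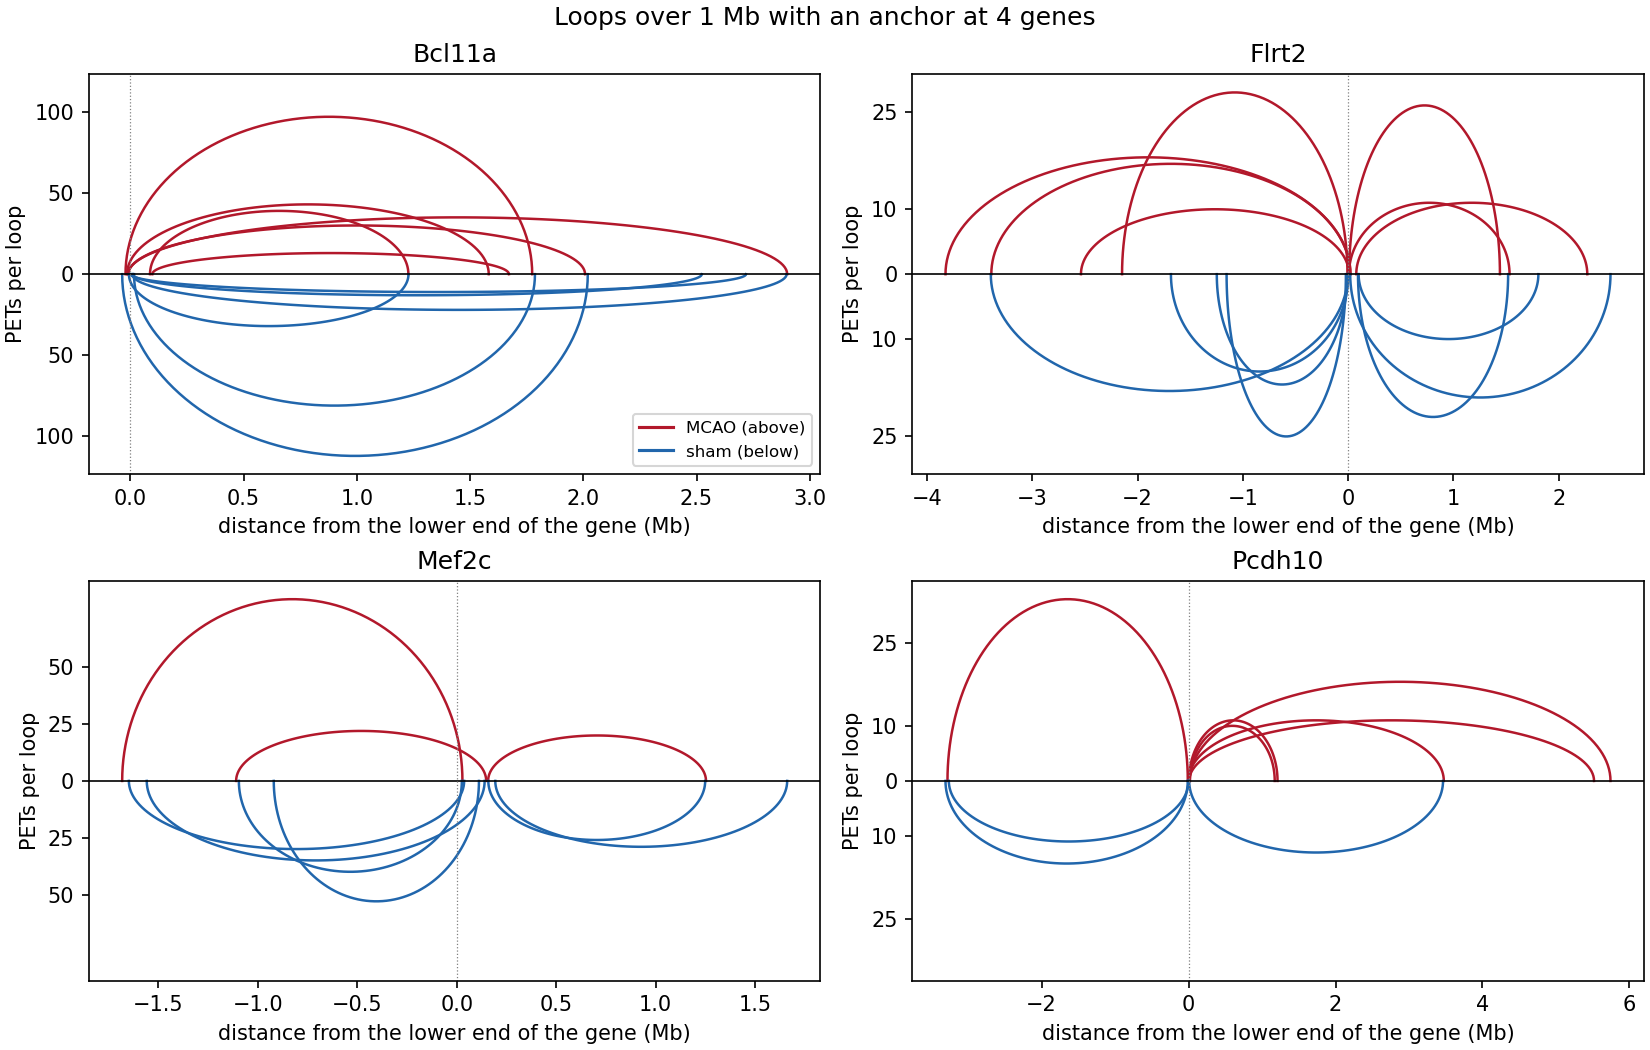
Loops over 1 Mb with an anchor at a gene end of Bcl11a, Flrt2, Mef2c and Pcdh10, drawn as arcs from anchor midpoint to anchor midpoint with a height equal to the PET number, MCAO above the line and sham below. Bcl11a loops all run to the right in both libraries, up to 97 PETs in MCAO and 112 in sham, while Flrt2 loops run to both sides.

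The longest loops rested on few PETs. The longest in MCAO was 5.93 Mb, from Lnpep on chromosome 17, with 10 PETs. It was followed by the Pcdh10 loops of 5.73 Mb (18 PETs) and 5.51 Mb (11 PETs). In sham a loop of 20.8 Mb on chromosome 17 joined Tbp, which encodes the TATA-binding protein, to Trim39 and H2-M10.2, with 10 PETs and 507 genes between. Another of 16.3 Mb on chromosome 9 joined Alkbh8 to Zfp317 with 11 PETs. Sham also had loops of 6.01 Mb from Sec23a to Togaram1 (16 PETs) and of 5.72 Mb from Fbxo33 to Klhl28 (20 PETs), side by side on chromosome 12. A sham loop of 5.78 Mb with 11 PETs began inside Pcdh10 and ended near the far anchor of the longest MCAO loop of that gene, outside the distance that makes a counterpart. None of the 4 MCAO and 7 sham loops over 5 Mb had a counterpart, and from 3 to 5 Mb the share was 27.9% in MCAO and 28.8% in sham.

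A counterpart, a loop of any span in the other list with both midpoints within 1 anchor width of the wider loop, was found for 570 MCAO loops, 40.2% (37.6 to 42.8), and 543 sham loops, 32.3% (30.0 to 34.6). Among loops of 1 Mb or less, 22.8% of the MCAO list and 24.4% of the sham list had one. The rule allows wide loops a larger distance, and with a fixed 20 kb it was 21.1% of very long MCAO loops (18.99 to 23.3) and 17.6% of very long sham loops (15.8 to 19.5), against 18.2% and 19.6% of the shorter ones. The excess over loops of 1 Mb or less therefore shrank with the fixed distance in MCAO and turned in sham. Loops of 500 kb to 1 Mb, close in anchor width, had 35.0% (33.4 to 36.6) in MCAO and 30.8% (29.3 to 32.3) in sham. That sham interval overlaps the one of very long loops. With 20 kb they had 17.5% (16.2 to 18.8) in MCAO and 15.8% (14.7 to 17.0) in sham, below very long loops, with overlapping intervals in sham. Loops with a counterpart had medians of 19 PETs in MCAO and 20 in sham, and loops without one had 12 in each. Of those without, 372 of 848 in MCAO and 569 of 1140 in sham had 10 or 11 PETs, where a partner just under the minimum would not be listed. Gene ends stood at 68.4% of MCAO and 69.6% of sham loops with a counterpart, and at 51.1% of MCAO and 42.2% of sham loops without.

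Counterparts were most frequent at both extremes of anchor width. Among the narrowest loops, under 20 kb, 72.9% (63.4 to 81.0) of 107 in MCAO and 62.3% (49.8 to 73.7) of 69 in sham had one. From 25 to 30 kb it was 19.2% (14.6 to 24.4) of 266 in MCAO and 12.98% (9.70 to 16.9) of 362 in sham. At 60 kb or more it was 76.6% (70.1 to 82.4) of 197 in MCAO and 80.1% (74.0 to 85.3) of 206 in sham. With the fixed 20 kb the narrow loops had 53.3% (43.4 to 63.0) in MCAO and 50.7% (38.4 to 63.0) in sham, and the widest 36.5% (29.8 to 43.7) in MCAO and 39.8% (33.1 to 46.8) in sham. Narrow loops had medians of 13 PETs in MCAO and 11 in sham, against 10 and 10 from 20 to 25 kb and 39 and 43 at 60 kb or more. Their partners were often much wider, with a median of 54.8 kb for MCAO loops and 20.1 kb for sham loops.

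**Figure D4:**
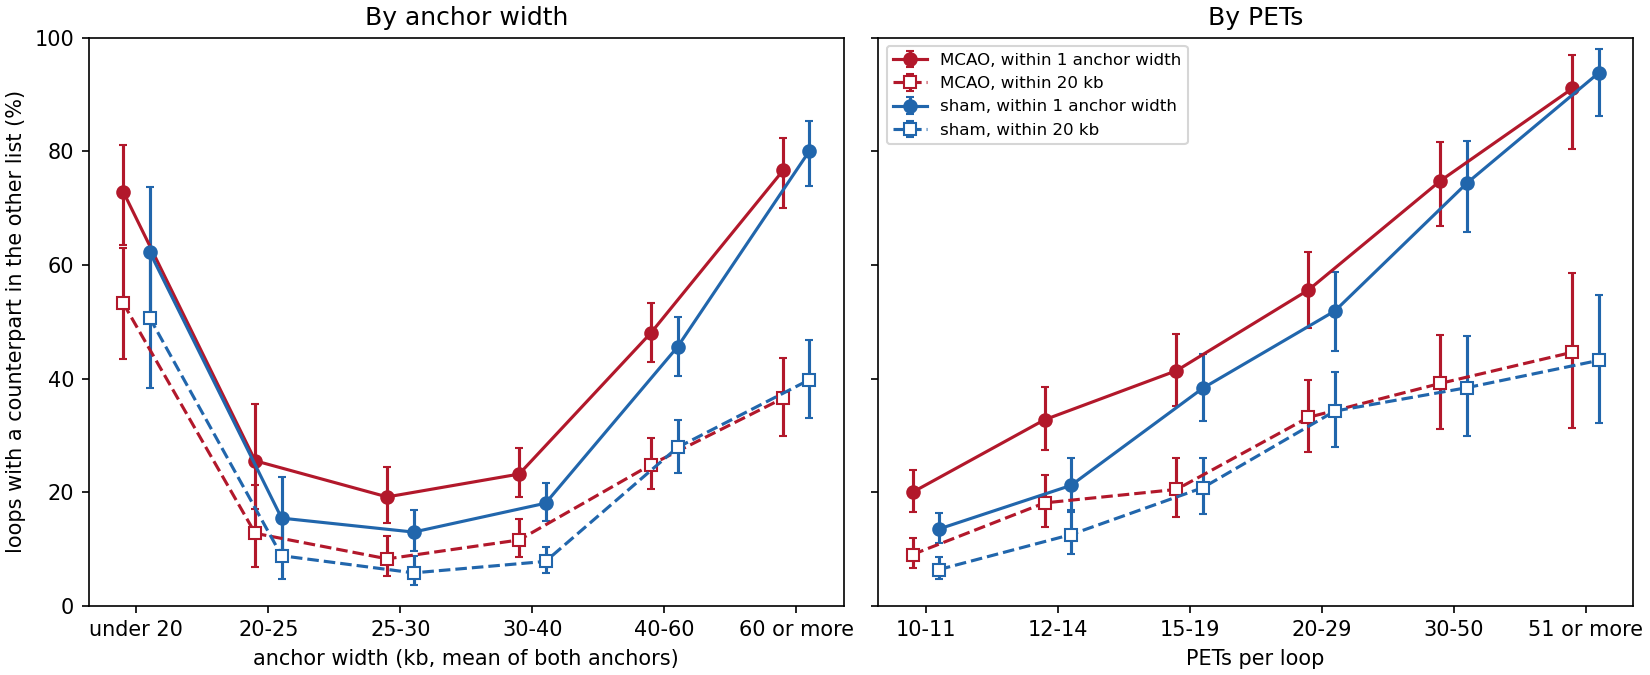
Share of very long loops with a counterpart in the other list by anchor width (left) and by PETs per loop (right), MCAO in red and sham in blue, with circles for the rule of 1 anchor width, squares for 20 kb and bars for exact 95% intervals. By width the share dips at 25 to 30 kb, to 19.2% in MCAO and 12.98% in sham, and by PETs it climbs to 91.1% in MCAO and 93.8% in sham.

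Some loops with many PETs per kb of anchor are described next. They were chosen after their values were seen. A loop of 1.08 Mb from Bcl6 on chromosome 16 had 25 PETs in MCAO over anchors of 8.80 kb and 25 PETs in sham over anchors of 19.7 kb. Igfbp3, an insulin-like growth factor binding protein, met a segment 1.09 Mb away with 15 PETs in MCAO, against 13 PETs over 1.097 Mb in sham. Fat4, a giant cadherin, had a loop of 1.56 Mb with 10 PETs in MCAO and one of 1.57 Mb with 10 PETs in sham. Adcy8, an adenylyl cyclase gene, had 28 PETs over 17.8 kb in MCAO and 18 PETs over 16.7 kb in sham. At Epha4 a loop of 1.86 Mb had 19 PETs in MCAO and 18 in sham. Plk2 had 45 PETs in MCAO and 34 in sham at anchors of 27.4 kb in MCAO and 27.1 kb in sham. Each of these loops had a partner of similar span in the other list.

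Pairs of very long loops that were each other's nearest partner numbered 491. The log2 ratio of PETs as a share of the library's PETs, MCAO over sham, had a median of -0.26 and quartiles of -1.01 and 0.37, and 52 pairs (10.6%) had at least 2-fold more in MCAO and 124 (25.3%) at least 2-fold fewer. These ratios followed anchor width. Spearman's rho between the PET ratio and the width ratio was 0.93 over the 491 pairs, and of the 176 pairs past 2-fold, 159 had anchors at least 1.5 times wider in the list with the larger share. In the 158 pairs whose wider anchors exceeded the narrower by at most 25%, the median was -0.21 with quartiles of -0.43 and 0.03, which has the size of the depth ratio (0.21 on the log2 scale). The choice of pairs with like widths itself removes most pairs with unlike PETs, so the counts that follow are descriptions. Of these pairs, 0 had at least 2-fold more in MCAO (0%) and 1 had at least 2-fold fewer (0.633%). Spearman's rho between MCAO and sham PETs was 0.88 in these pairs and 0.16 in all 491.

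The single pair past 2-fold in depth-scaled PETs at like widths was at Epha7, an ephrin receptor gene on chromosome 4. It had 12 PETs in MCAO and 22 in sham over 1.88 Mb in MCAO and 1.86 Mb in sham, a log2 ratio of -1.09. At the other end Adamts1, a metalloprotease gene, had 30 PETs in MCAO and 15 in sham, a depth-scaled log2 ratio of 0.79. In PETs as counted, before scaling to depth, the Adamts1 pair was at 2-fold and the Epha7 pair below it. Bdnf, a neurotrophin gene induced by activity, had 28 in MCAO and 17 in sham over anchors of 50.7 kb in MCAO and 47.4 kb in sham, a log2 ratio of 0.51. Extreme ratios among all pairs went with unlike anchors. The loop from Mrpl32 to Gli3, a Hedgehog transcription factor, had 156 PETs over 122.7 kb in MCAO and 10 PETs over 11.4 kb in sham. The chromosome 2 loop to Grb14 had 12 PETs over 16.4 kb in MCAO and 156 PETs over 144 kb in sham.

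**Figure D5:**
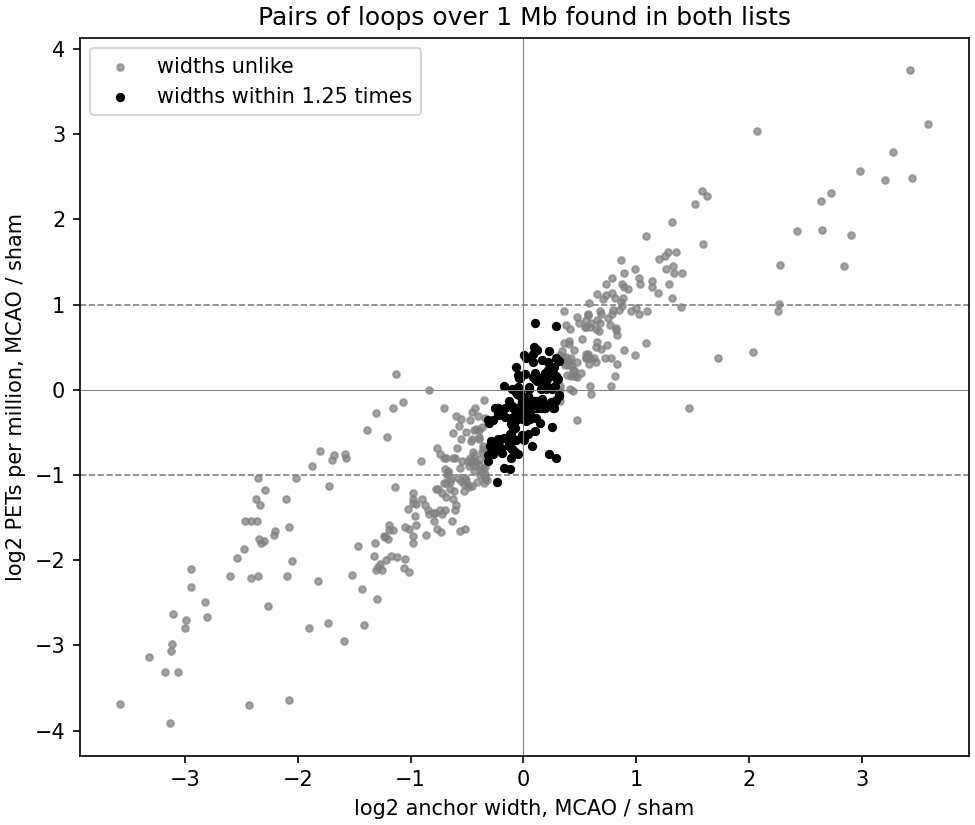
Log2 ratio of depth-scaled PETs against log2 ratio of anchor width, MCAO over sham, for the 491 pairs of loops over 1 Mb, with black points for the 158 pairs of like width and dashed lines at 2-fold. The points follow the diagonal, and 1 of the black points lies past a dashed line.

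Of the loops with 30 or more PETs, 41 of 199 in MCAO (20.6%) and 37 of 206 in sham (17.96%) lacked a counterpart, against 59.8% and 67.7% of all very long MCAO and sham loops. In MCAO the leading ones included those that ended at Sox9, a glial and cartilage factor of chromosome 11 (71 PETs over 1.11 Mb), at Isx on chromosome 8 (62 PETs), at Runx1t1 (47 PETs) and at Nrp2 (45 PETs). Bcl11a also had a loop of 1.60 Mb with 43 PETs in MCAO that lacked one. In sham they included the loop of 2.99 Mb from Med17, a Mediator subunit gene, to Chordc1 on chromosome 9 (59 PETs), and loops ending at Cdk5rap2 (55 PETs), Mef2c (53 PETs over 1.03 Mb), Sema6a (47 PETs), Atp2b1, a calcium pump (47 PETs), Tusc3 (46 PETs) and Ncam2 (44 PETs over 1.99 Mb). Most of these genes had other very long loops in the opposite list, except Med17 and Cdk5rap2, with 0 in MCAO and 1 in sham each. Sox9 had 2 in MCAO and 1 in sham, Mef2c 3 in MCAO and 6 in sham, and Ncam2 2 in MCAO and 6 in sham.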

How the data were processed

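Hi-C loops were measured in 1 MCAO and 1 sham library of mouse cortex. Per the submitters' processing notes, reads were processed with HiC-Pro and Bowtie2 on mm10. The loop caller is not given in the sources used here. Per the file headers, the deposited lists give for each loop the counts of PETs and of reads at each anchor, the distance between anchor midpoints, enrichment ratios, and p-values with a false discovery rate. The deposited density is a signal equal to PETs per kb of anchor and 1000000 library PETs, which gave the depths of 40550536 MCAO and 34974213 sham PETs. Ratios, p-values and density were used only to describe or filter loops.

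Autosomal loops with a distance above 1000000 bases were kept. A gene was at an anchor that came within 2.5 kb of either end of a protein-coding gene (RefSeq GRCm38.p6, 21883 genes, of which 20661 autosomal). The members, the gene classes and the lists were chosen with earlier results of these data known, and class patterns were edited after the data were seen. Genes were named by rule from the 10 loops with the most PETs in each list, the 10 mutual pairs with the most, the 10 strongest loops without a counterpart, the 5 merged anchors with the most loops and the 5 longest loops. Some genes that the rule names are not reported here. Genes named for class, PETs per kb of anchor or unequal numbers of loops, histones included, were chosen after their values were seen.

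With 1 library per group no test was run. Shares have exact Clopper-Pearson and ratios exact binomial 95% intervals. Mapping can misplace reads of near-identical genes, and the counterpart rule allows wide anchors a larger distance. Scripts were tested on simulated data. Alternatives changed the PET minimum, depth scaling, list length, gene window, and counterpart rule. A distance of 100 kb for counterparts and all settings of the adhesion share were added after seeing the data. Python 3.11.15, numpy 2.4.6, pandas 2.3.3, scipy 1.17.1, networkx 3.6.1 and matplotlib 3.10.9 were used.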

Additional observations from a re-analysis of the deposited data

How the results depend on the processing

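Under 12 alternative settings, 54 of 101 values stayed within the interval of the reported value, or for counts within 1.5 times of it, and 47 moved further. Depth scaling raised the MCAO minimum to 12 PETs and left the sham minimum at 10. Depth scaling and equal list length leave the sham list unchanged. Sham values other than the counterpart share could not move there, so their place among the 54 says nothing about stability. The ratio of loop numbers stayed below 1 in each setting run. With 1 library per group, no spread between animals is known. The ratio of MCAO to sham loop numbers was 0.566 with MCAO PETs scaled to the sham depth, 0.965 with at least 15 PETs and 0.724 with lists of equal length, so the deficit in MCAO depended on the PET minimum. The median PETs in MCAO were 18, 22 and 15 under these settings in that order, and 22 in sham with at least 15 PETs. The anchor width in MCAO was 43.8, 50.7 and 37.7 kb, and 49.6 kb in sham with at least 15 PETs, where the sham span was 1.31 Mb. Loops with the same class at both anchors numbered 26 in MCAO and 34 in sham when any part of a gene counted, and 6 and 6 with at least 15 PETs, so MCAO did not keep the larger number. The counterpart share in MCAO was 50.1% with scaled depth, 44.3% with at least 15 PETs, 43.9% with equal lists, 55.2% within 100 kb, 56.4% within 2 anchor widths, 21.1% within 20 kb and 36.6% with overlapping anchors. In sham it was 28.5% with scaled depth, 41.7% with at least 15 PETs, 46.7% within 100 kb, 47.2% within 2 anchor widths, 17.6% within 20 kb and 29.9% with overlapping anchors. The gene-end share in MCAO was 66.1% with scaled depth, 77.0% with any part of a gene, 70.6% with at least 15 PETs, 54.9% with no window and 63.9% with 10 kb. In sham it was 72.6% with any part of a gene, 65.1% with at least 15 PETs, 48.1% with no window and 56.1% with 10 kb. The adhesion share stayed higher at very long loops in each setting run, and with any part of a gene it was 7.90% in MCAO and 9.45% in sham, against 2.96% and 3.38% at loops of 1 Mb or less. The cause of these shifts was not tested. No paired analysis was possible because each group has 1 library and no test was run.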
